A study of Homo sapiens with 12 samples.

Results

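The response of IL1RAP-KO MCF10A cells to a single dose of 20 Gy was measured by RNA sequencing in 4 of the 12 libraries of the series, chosen by their labelled genotype and treatment alone. Of these, 2 came from IL1RAP-KO cells after irradiation (IL1RAP-KO RT) and 2 from IL1RAP-KO cells left untreated (IL1RAP-KO). The other 8 libraries, 2 each of IL1R1-KO RT, IL1R1-KO, WT RT and WT cells, entered the estimate of the spread and served to show where the response of IL1RAP-KO cells differed. MCF10A cells are human mammary epithelial cells that were immortalized but do not form tumours. All 6 groups grew in medium with horse serum, EGF, insulin, cholera toxin and hydrocortisone, a glucocorticoid. The KO cells had received a lentiviral CRISPR plasmid, were selected with puromycin and were used as pools, so a KO group can hold cells that kept the gene. Guide RNAs existed in pairs for each gene, and the sources used here do not say which guide stands behind which library. They also do not give the time between irradiation and RNA extraction. The libraries of a group are called biological repeats by the study, and p-values measure the spread between them, whatever its source.

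Interleukin-1 (IL-1) alpha and beta bind the receptor chain IL1R1, and the bound receptor needs the accessory chain IL1RAP to signal through MYD88 and the IRAK kinases to NF-κB. Ionizing radiation breaks DNA, and the checkpoint kinases then stop the cell cycle and adjust the transcription of cell cycle genes. Irradiated epithelial cells that stop dividing are known to secrete cytokines and chemokines, and DNA or RNA that reaches the cytosol can start an interferon response. The comparison asks which of these programmes moved after irradiation in cells whose IL-1 receptor lacks its accessory chain.

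Levels were deposited as TPM, a read count per transcript length that is brought to one total in every library. The depth of the libraries is unknown. TPM were divided by a scaling factor per library, and these scaled TPM are the levels given below. Changes are differences of log2(scaled TPM + 1), which understates the change of genes at low levels. Genes were called when the Benjamini-Hochberg adjusted p in limma was under 0.05 and the fold change over 2. Adjusted p-values below are from that fit. In bulk RNA, fewer cells of a kind and less RNA per cell cannot be told apart.

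IL1RAP mRNA was low in all 4 libraries. Its level was 3.04 and 5.77 scaled TPM in IL1RAP-KO RT cells, against 4.41 and 4.97 in IL1RAP-KO cells (log2 fold change -0.12, SE 0.21, adjusted p = 0.666), and the ranges of the groups overlapped. In the other genotypes it was 11.8 and 14.3 scaled TPM in cells labelled IL1R1-KO RT and 17.8 and 19.4 in cells labelled IL1R1-KO. WT RT cells had 8.31 and 8.81 and WT cells 18.04 and 20.7 scaled TPM. All 4 IL1RAP-KO libraries were thus below the other 8. IL1R1 mRNA, by contrast, was at 11.03 and 7.81 scaled TPM in untreated cells labelled IL1R1-KO, against 10.7 and 9.46 in WT cells, ranges that overlap, so mRNA does not mark that label. The study checked its KO cells by protein. Western blots showed depletion of IL1RAP with either guide, while no suitable antibody for IL1R1 was found. After IL-1 treatment WT cells degraded IκBα, an inhibitor of NF-κB, and the study reports that all IL1R1-KO and IL1RAP-KO cells resisted this.

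The 4 libraries held the epithelial markers of the line. The basal markers KRT5, KRT14, KRT17, TP63, ITGA6 and ITGB4 summed to 2479 to 2609 scaled TPM in IL1RAP-KO RT cells and 3607 to 3714 in IL1RAP-KO cells. The luminal markers KRT8, KRT18, KRT19, EPCAM and CDH1 summed to 341 to 349.7 in IL1RAP-KO RT cells and 646 to 666 in IL1RAP-KO cells, with KRT19 at 0 in all 4. Of 7 fibroblast markers COL1A2 and PDGFRA were at 0 in all 4, and their sum of 52.9 to 58.4 in IL1RAP-KO RT cells and 20.6 to 23.01 in IL1RAP-KO cells came mostly from DCN. Of 7 leukocyte markers CD3E was at 0 in all 4, and the sum of 29.3 to 39.3 and 17.3 to 20.85 came mostly from CD14. Of 4 endothelial markers CDH5 was at 0 in all 4, and the sums were 7.79 to 9.41 and 3.65 to 3.75.

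IL1RAP-KO RT replicate 2 stood apart. Transcripts of mitochondrial DNA took 45.1% and 57.0% of the deposited TPM in IL1RAP-KO RT replicates 1 and 2, against 20.1% and 19.9% in IL1RAP-KO cells. In the other irradiated libraries the share was 36.9% to 41.2%. Nuclear protein-coding genes took 52.5% and 40.7%, against 78.0% and 78.2%, and cytosolic ribosomal proteins 9.26% and 6.54%, against 15.6% in each untreated library. The irradiated pair correlated at r = 0.9725 across genes on the log2 scale, and replicate 1 of it was closer to IL1R1-KO RT replicate 2 (r = 0.9809), whereas the untreated pair correlated at r = 0.9891. Counts are therefore given with and without IL1RAP-KO RT replicate 2, and the part of the mitochondrial share in the results was not tested.

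**Figure D1:**
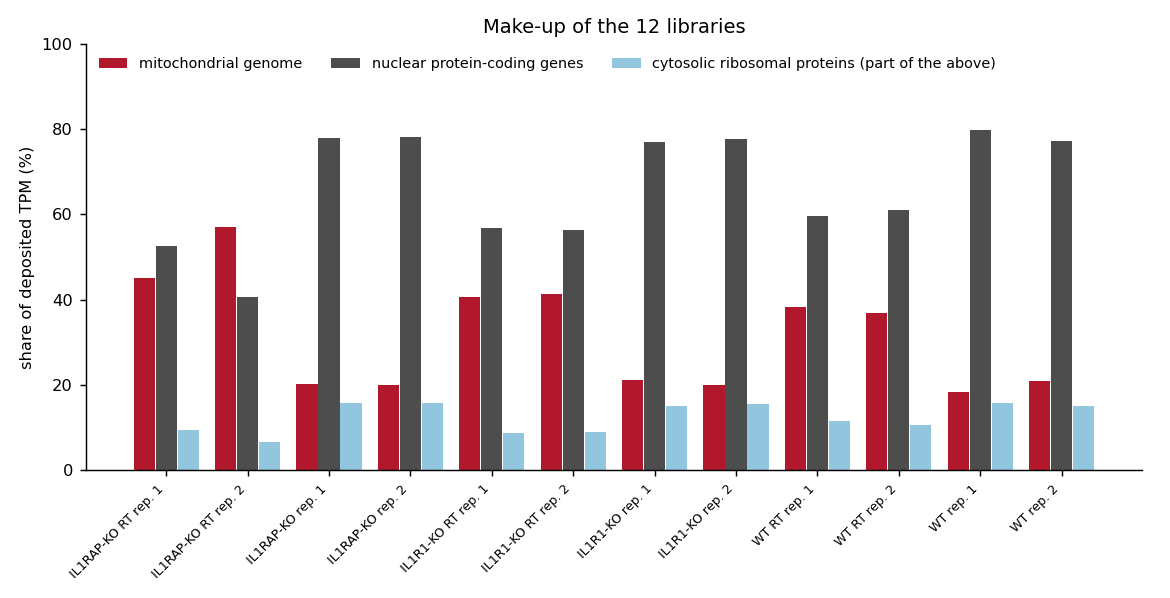
Percent of the deposited TPM (y axis) taken by mitochondrial transcripts, nuclear protein-coding genes and cytosolic ribosomal proteins in each of the 12 libraries (x axis), 1 bar of each colour per library. IL1RAP-KO RT replicate 2 has the highest mitochondrial bar, 57.0%, against 45.1% in replicate 1 and 20.1% and 19.9% in IL1RAP-KO cells.

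After irradiation 1238 genes were higher and 1428 lower in IL1RAP-KO RT cells than in IL1RAP-KO cells, which is 8.09% and 9.33% of the 15303 genes tested. Without IL1RAP-KO RT replicate 2 the numbers were 1227 and 1231, and without IL1RAP-KO RT replicate 1 they were 1494 and 1707. The balance between the directions followed the scaling. Of the called genes 46.4% were higher, but 22.5% with TPM as deposited (733 higher, 2532 lower) and 77.9% when libraries were scaled to nuclear protein-coding genes (2413 higher, 684 lower). The median change of all genes moved accordingly, to -0.28 and 0.34 on the log2 scale, against -0.0007 in the reported fit, so directions below are relative to that centre. Genes that changed by more than these shifts, such as those of mitosis and the interferon response, kept their direction.

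Many of the changed genes were also called in the other genotypes. The 4 libraries enter those comparisons through the estimate of the spread, which all 12 share, so the calls do not come from fully separate tests. Of the 1238 higher genes 632 (51.1%, and 58.8% of the 1074 of WT) were higher in WT RT than in WT cells, and 793 (64.1%, and 65.1% of 1219) in cells labelled IL1R1-KO RT. Of the 1428 lower genes 741 (51.9%, and 77.7% of the 954 of WT) were lower in WT RT cells and 987 (69.1%, and 77.2% of 1278) in cells labelled IL1R1-KO RT. In IL1RAP-KO cells alone 331 genes were called higher and 356 lower. When the responses themselves were compared, only 4 of the 331 and 4 of the 356 differed from WT, and 1 and 0 differed from IL1R1-KO.

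**Figure D2:**
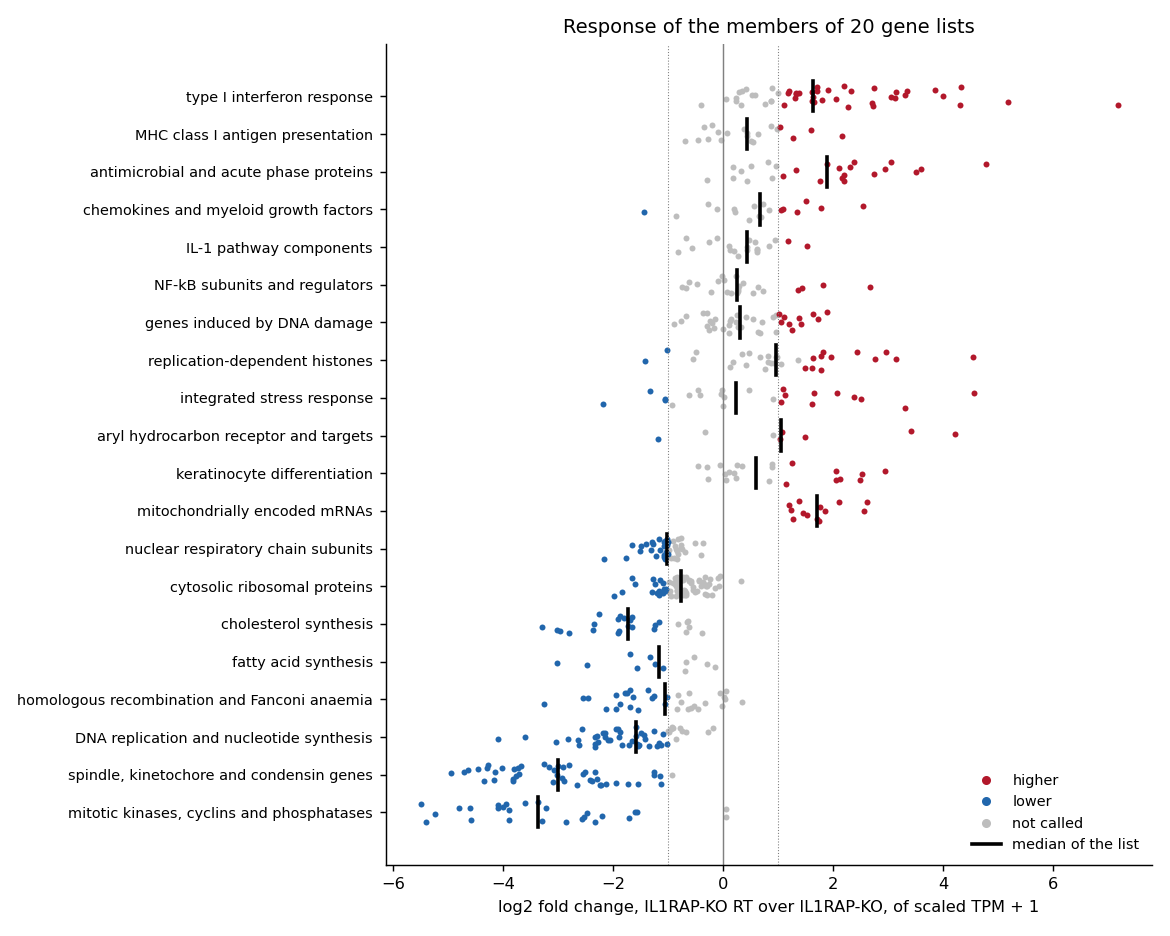
Log2 fold change of IL1RAP-KO RT over IL1RAP-KO (x axis) of each tested member of 20 gene lists (rows), 1 point per gene with a bar at the median of the list. Members of the mitotic list centre on -3.37 and those of the type I interferon response on 1.63, while the mitochondrially encoded mRNAs lie between 1.19 and 2.61.

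Genes of the interferon response rose widely. Of 48 tested genes of the type I interferon response 33 were higher and none lower (8.09% of all genes were called higher), with a median log2 fold change of 1.63, and 47 of the 48 estimates were positive. There were 35 higher without IL1RAP-KO RT replicate 2, with TPM as deposited 31, and 38 when nuclear protein-coding genes set the scale. In WT cells 28 of the 48 were higher after irradiation and in cells labelled IL1R1-KO 40, and the response of no member differed from either in a called way. Many promoters of these genes carry the interferon-stimulated response element, the site of the ISGF3 complex. Those of 3 genes described next are shown. They were picked by hand and not by size of change, and IFI27 and OAS2, which changed more than IFIT1 and ISG15, are not shown. RefSeq promoters (GRCh38.p14, 250 bases before to 50 after the start, 5′ to 3′ on the strand of the gene) were searched on both strands for TTTCNNTTT, letters of the core of that element, and matches are in capitals. They cover chr1:27672143-27672442 for IFI6 (minus strand), chr10:89392373-89392672 for IFIT1 and chr1:1013247-1013546 for ISG15 (plus strand).
IFI6: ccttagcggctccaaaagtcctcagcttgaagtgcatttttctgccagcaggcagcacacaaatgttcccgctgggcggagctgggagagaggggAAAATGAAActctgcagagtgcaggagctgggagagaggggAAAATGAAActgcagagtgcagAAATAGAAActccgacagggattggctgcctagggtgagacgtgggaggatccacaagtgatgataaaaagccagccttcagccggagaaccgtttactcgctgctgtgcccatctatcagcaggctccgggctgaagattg
IFIT1: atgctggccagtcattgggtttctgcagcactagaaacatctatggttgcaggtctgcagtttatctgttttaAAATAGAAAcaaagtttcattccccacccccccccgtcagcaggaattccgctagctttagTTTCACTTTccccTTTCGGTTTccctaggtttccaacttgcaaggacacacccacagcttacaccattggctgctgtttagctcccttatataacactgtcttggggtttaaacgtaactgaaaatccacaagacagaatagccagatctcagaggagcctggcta
ISG15: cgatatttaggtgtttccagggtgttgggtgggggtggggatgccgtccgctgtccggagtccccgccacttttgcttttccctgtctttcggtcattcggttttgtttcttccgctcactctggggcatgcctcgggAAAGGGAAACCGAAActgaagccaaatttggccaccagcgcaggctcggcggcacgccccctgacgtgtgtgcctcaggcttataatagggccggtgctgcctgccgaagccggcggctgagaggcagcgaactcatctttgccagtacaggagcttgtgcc
The letters were found 3 times in the promoter of IFI6, 3 times in that of IFIT1 and 2 times, overlapping, in that of ISG15. A promoter was found for 39 genes of the list, of which 33 (84.6%) held them, against 1073 of 10380 tested genes (10.3%) and 3435 of all 27305 genes with a RefSeq promoter (12.6%). A match is a description of the letters and not of a bound site.

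IFI6, an interferon-induced membrane protein that limits cell death and viral replication (gene ENSG00000126709, chromosome 1, 27666064 to 27672212, GRCh38), was at 433 and 350.4 scaled TPM in IL1RAP-KO RT cells, against 1.81 and 1.61 in IL1RAP-KO cells (log2 fold change 7.17, SE 0.49, adjusted p = 3.42e-06). Both irradiated libraries lay far above both untreated ones. IFI27, another interferon-induced membrane protein, was at 173 and 113 scaled TPM in IL1RAP-KO RT cells, against 5.07 and 1.49 in IL1RAP-KO cells (log2 fold change 5.18, SE 0.60, adjusted p = 8.12e-05). IFIT1, which binds viral RNA without a proper cap, stood at 36.8 and 27.1 scaled TPM in IL1RAP-KO RT cells, against 0.701 and 0.616 in IL1RAP-KO cells (log2 fold change 4.30, SE 0.30, adjusted p = 3.91e-06). For each of these genes replicate 2 was the lower of the irradiated libraries, and the groups did not overlap. ISG15, a ubiquitin-like modifier, was at 69.1 and 36.0 scaled TPM in IL1RAP-KO RT cells, against 2.36 and 2.03 in IL1RAP-KO cells (log2 fold change 3.998, SE 0.38, adjusted p = 2.54e-05). OAS2, an enzyme that makes the activator of RNase L, was at 40.5 and 26.3 scaled TPM in IL1RAP-KO RT cells, against 0.496 and 0.914 in IL1RAP-KO cells (log2 fold change 4.31, SE 0.27, adjusted p = 2.13e-06). Its relative OAS1 was at 135 and 98.5 scaled TPM in IL1RAP-KO RT cells, against 22.6 and 21.996 in IL1RAP-KO cells. The largest gap between irradiated replicates among these was that of ISG15, and it was smaller than the gap between groups.

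Some genes that carry or sense the interferon signal rose as well. IRF9, the DNA-binding part of ISGF3, was at 59.5 and 70.5 scaled TPM in IL1RAP-KO RT cells, against 8.04 and 9.92 in IL1RAP-KO cells (log2 fold change 2.73, SE 0.18, adjusted p = 2.99e-06). IRF7, which drives later interferon production, was at 7.23 and 2.68 scaled TPM in IL1RAP-KO RT cells, against 0.889 and 0.504 in IL1RAP-KO cells, a log2 fold change of 1.71 (adjusted p = 0.00175; 0.0561 when the groups compared were fitted alone). Among 15 sensors and adaptors of cytosolic nucleic acid 4, IRF7 included, were higher and none lower (8.09% of all genes were called higher). The median log2 fold change of that list was 0.02, and 6 of the 15 estimates were negative. With TPM as deposited 4 were higher and 1 lower. DDX58, the RNA sensor RIG-I, was at 28.3 and 26.4 scaled TPM in IL1RAP-KO RT cells, against 3.29 and 3.97 in IL1RAP-KO cells (log2 fold change 2.62, SE 0.17, adjusted p = 2.23e-06). DHX58, its relative LGP2, was at 5.45 and 5.53 scaled TPM in IL1RAP-KO RT cells, against 0.206 and 0.765 in IL1RAP-KO cells. IFIH1, the sensor MDA5, was at 34.3 and 37.5 scaled TPM in IL1RAP-KO RT cells, against 11.8 and 9.91 in IL1RAP-KO cells. Among the members that did not pass, the kinase TBK1 had a log2 fold change of 0.01, the DNA sensor IFI16 of 0.02 and the RNA-editing enzyme ADAR of 0.80. Members of the interferon list that did not pass included IFITM3, at 1415 and 1106 scaled TPM in IL1RAP-KO RT cells, against 1255 and 1166 in IL1RAP-KO cells, and IFITM2, with a log2 fold change of -0.41. IFITM genes resemble each other closely, so reads may have been divided between them.

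Antigen presentation by MHC class I moved in part. Of 20 genes 4 were higher and none lower, among them HLA-B, HLA-F and B2M, with a median over the list of 0.43. HLA-B, a chain that presents peptides, was at 195 and 175 scaled TPM in IL1RAP-KO RT cells, against 40.5 and 40.0 in IL1RAP-KO cells (log2 fold change 2.17, SE 0.16, adjusted p = 4.98e-06), and the groups did not overlap. B2M, the light chain shared by class I molecules, was at 2489 and 2675 scaled TPM in IL1RAP-KO RT cells, against 1062 and 1077 in IL1RAP-KO cells (log2 fold change 1.27, SE 0.14, adjusted p = 5.68e-05), a call lost with TPM as deposited. The chaperones of the peptide loading pathway did not pass, with log2 fold changes of -0.46 for CANX, -0.35 for PDIA3 and -0.20 for CALR. HLA genes resemble each other, so their levels are uncertain.

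**Figure D3:**
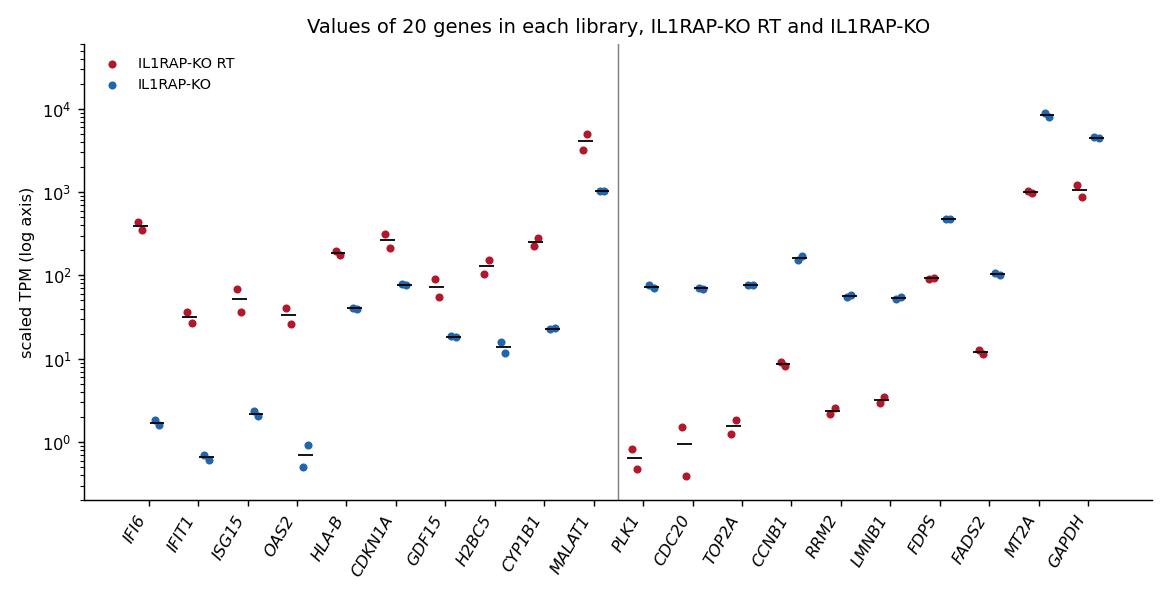
Scaled TPM on a log axis (y) in IL1RAP-KO RT replicates 1 and 2 and IL1RAP-KO replicates 1 and 2, of 10 higher genes left of the vertical line and 10 lower genes right of it (x), 1 point per library with a bar at the mean. IFI6 lies at 433 and 350.4 against 1.81 and 1.61, and PLK1 at 0.830 and 0.468 against 76.2 and 70.5.

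The genes that run mitosis fell almost without exception. Of 27 mitotic kinases, cyclins and phosphatases 25 were lower (9.33% of all genes were called lower), with a median log2 fold change of -3.37, and of 45 genes of the spindle, kinetochore and condensin 44 were lower, with a median of -3.001. The numbers were 25 and 45 without IL1RAP-KO RT replicate 2. In WT cells 24 and 45 fell after irradiation, and in cells labelled IL1R1-KO 25 and 45. Many of these promoters carry the cell cycle genes homology region (CHR), through which the DREAM complex represses them in cells that do not divide. The promoters of PLK1 (chr16:23678639-23678938), CDC20 (chr1:43358731-43359030) and CCNB2 (chr15:59104896-59105195), all on the plus strand, are shown, with the letters TTTGAA or their complement in capitals. They were picked by hand from genes that fell far. UBE2C and PCLAF, which fell further than CDC20, are not shown.
PLK1: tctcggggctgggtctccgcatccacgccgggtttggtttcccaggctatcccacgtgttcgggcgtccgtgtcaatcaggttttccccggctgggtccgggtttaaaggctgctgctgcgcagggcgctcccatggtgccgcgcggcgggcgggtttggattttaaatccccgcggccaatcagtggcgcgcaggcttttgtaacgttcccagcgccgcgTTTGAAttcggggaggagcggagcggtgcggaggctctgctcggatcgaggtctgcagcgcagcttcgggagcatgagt
CDC20: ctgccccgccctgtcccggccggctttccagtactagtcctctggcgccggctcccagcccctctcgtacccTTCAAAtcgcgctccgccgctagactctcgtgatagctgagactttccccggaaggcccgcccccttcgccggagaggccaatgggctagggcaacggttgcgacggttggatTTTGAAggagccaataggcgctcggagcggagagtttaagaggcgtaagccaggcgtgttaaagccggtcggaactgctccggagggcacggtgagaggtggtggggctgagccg
CCNB2: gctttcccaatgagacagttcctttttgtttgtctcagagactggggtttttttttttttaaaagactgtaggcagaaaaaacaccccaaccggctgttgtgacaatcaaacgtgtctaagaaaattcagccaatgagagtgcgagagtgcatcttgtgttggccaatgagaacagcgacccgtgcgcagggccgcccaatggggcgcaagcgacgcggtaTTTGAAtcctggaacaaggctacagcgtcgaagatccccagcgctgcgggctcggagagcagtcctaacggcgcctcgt
In PLK1 and CCNB2 the match started 29 bases before the start of the transcript, and CDC20 held 2 matches. Of the spindle list 31 of 40 promoters (77.5%) held these letters and of the mitotic list 10 of 20, against 1459 of 10380 tested genes (14.1%). The share was 3 of 42 (7.14%) in DNA replication genes and 3 of 39 (7.69%) in interferon genes. It was 11 of 30 (36.7%) in replication-dependent histones, of which 12 were higher and 2 lower after irradiation. Antimicrobial genes held them in 3 of 14 (21.4%) and MHC class I genes in 3 of 16 (18.8%).

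PLK1, a kinase of mitotic entry, was at 0.830 and 0.468 scaled TPM in IL1RAP-KO RT cells, against 76.2 and 70.5 in IL1RAP-KO cells (log2 fold change -5.50, SE 0.13, adjusted p = 1.97e-08). UBE2C, the ubiquitin-conjugating enzyme of the anaphase-promoting complex, was at 0.431 and 0.508 scaled TPM in IL1RAP-KO RT cells, against 63.4 and 58.4 in IL1RAP-KO cells (log2 fold change -5.40, SE 0.12, adjusted p = 1.97e-08). CDC20, which activates that complex, was at 1.52 and 0.388 scaled TPM in IL1RAP-KO RT cells, against 70.4 and 69.0 in IL1RAP-KO cells (log2 fold change -5.24, SE 0.22, adjusted p = 2.6e-07). In each case the irradiated libraries were far below the untreated ones. CCNB1, a cyclin of CDK1, was at 9.11 and 8.13 scaled TPM in IL1RAP-KO RT cells, against 155 and 173 in IL1RAP-KO cells (log2 fold change -4.10, SE 0.14, adjusted p = 1.14e-07). CDK1 itself was at 3.27 and 4.84 scaled TPM in IL1RAP-KO RT cells, against 76.1 and 76.7 in IL1RAP-KO cells. AURKB, the kinase of the chromosomal passenger complex, was listed at 0 in both IL1RAP-KO RT libraries, against 23.4 and 22.6 scaled TPM in IL1RAP-KO cells. BIRC5, the survivin subunit of the same complex, was at 0.431 and 0.642 scaled TPM in IL1RAP-KO RT cells, against 37.9 and 40.5 in IL1RAP-KO cells (log2 fold change -4.71, SE 0.15, adjusted p = 8.6e-08). The members of the mitotic list that did not pass were WEE1, the kinase that holds CDK1 inactive, at 13.97 and 22.3 scaled TPM in IL1RAP-KO RT cells, against 15.2 and 18.9 in IL1RAP-KO cells, and MASTL, at 7.76 and 8.31 scaled TPM in IL1RAP-KO RT cells, against 7.93 and 7.56 in IL1RAP-KO cells, both with overlapping groups. SMC2 of condensin was the spindle gene that missed the fold threshold (log2 fold change -0.93).

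TOP2A, the topoisomerase that untangles sister chromatids, fell to 1.25 and 1.86 scaled TPM in IL1RAP-KO RT cells, against 77.5 and 76.3 in IL1RAP-KO cells (log2 fold change -4.94, SE 0.12, adjusted p = 2.1e-08). It was the spindle gene whose response differed from that of WT cells, by -1.27 (SE 0.17, adjusted p = 0.00991), a call lost at differences of -1.29 to -1.20 when any of WT replicates 1 and 2, IL1RAP-KO replicates 1 and 2 or WT RT replicate 1 was left out. In WT RT cells it was at 4.97 and 4.42 scaled TPM and in WT cells at 70.3 and 72.7. PCLAF, a partner of the replication clamp PCNA that was among the 15 lowest genes, was at 1.37 and 1.22 scaled TPM in IL1RAP-KO RT cells, against 93.3 and 99.1 in IL1RAP-KO cells (log2 fold change -5.41, SE 0.17, adjusted p = 8.6e-08).

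DNA replication and nucleotide synthesis fell less far than mitosis. Of 50 genes 39 were lower and none higher, with a median of -1.59 and every estimate negative, and 37 were lower without IL1RAP-KO RT replicate 2. RRM2, a subunit of the reductase that makes deoxynucleotides, was at 2.18 and 2.53 scaled TPM in IL1RAP-KO RT cells, against 54.7 and 57.6 in IL1RAP-KO cells (log2 fold change -4.09, SE 0.23, adjusted p = 9.99e-07). Thymidine kinase TK1 was at 0.210 and 0.375 scaled TPM in IL1RAP-KO RT cells, against 15.3 and 13.9 in IL1RAP-KO cells (log2 fold change -3.60, SE 0.16, adjusted p = 3.66e-07). The replicative helicase moved with them, MCM2 at 4.16 and 3.72 scaled TPM in IL1RAP-KO RT cells, against 24.6 and 22.8 in IL1RAP-KO cells and MCM6 at 4.83 and 5.35 scaled TPM in IL1RAP-KO RT cells, against 27.0 and 30.3 in IL1RAP-KO cells. MCM3 had a log2 fold change of -1.58. PCNA, the replication clamp, was lower by less than the threshold, at 80.8 and 80.5 scaled TPM in IL1RAP-KO RT cells, against 145 and 151 in IL1RAP-KO cells (log2 fold change -0.87). MCM4 had a log2 fold change of -0.91 and DUT of -0.997. Of 16 E2F and RB family genes 2, E2F1 and E2F5, were lower and none higher, a share near the 9.33% of all genes called lower. With TPM as deposited 4 were lower, and on the scale of nuclear protein-coding genes 2 were lower and 1 higher. E2F1 was at 0.1995 and 0.1204 scaled TPM in IL1RAP-KO RT cells, against 2.92 and 2.98 in IL1RAP-KO cells. RBL2, which represses with DREAM, had a log2 fold change of 0.27. The G1 cyclins CCND1 and CCND2 did not pass (log2 fold changes 0.04 and -0.02). CDK4 was at 36.0 and 24.7 scaled TPM in IL1RAP-KO RT cells, against 93.3 and 92.2 in IL1RAP-KO cells (log2 fold change -1.60, SE 0.16, adjusted p = 2.91e-05). CDK2 was at 6.79 and 4.55 scaled TPM in IL1RAP-KO RT cells, against 17.9 and 20.7 in IL1RAP-KO cells.

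Genes of DNA repair were described by pathway. Of 33 genes of homologous recombination and the Fanconi anaemia pathway 18 were lower and none higher (median -1.06), and 16 were lower without IL1RAP-KO RT replicate 2. The resection nuclease EXO1 was at 1.05 and 1.22 scaled TPM in IL1RAP-KO RT cells, against 20.3 and 18.5 in IL1RAP-KO cells (log2 fold change -3.26, SE 0.21, adjusted p = 2.17e-06). FANCI and UBE2T of the Fanconi pathway had log2 fold changes of -1.94 and -1.55. RAD50 and RBBP8, which begin resection, stood at -0.01 and -0.05. In non-homologous end joining 2 of 16 were lower and 1 higher, shares near those of all genes (9.33% and 8.09%), and the difference between the pathways was not tested. The Ku subunit XRCC5 was at 127 and 131 scaled TPM in IL1RAP-KO RT cells, against 303 and 310.4 in IL1RAP-KO cells and the shieldin subunit SHLD2 at 13.7 and 16.4 scaled TPM in IL1RAP-KO RT cells, against 41.9 and 39.2 in IL1RAP-KO cells. The ligase LIG4 was higher, at 17.9 and 20.96 scaled TPM in IL1RAP-KO RT cells, against 7.38 and 8.70 in IL1RAP-KO cells (log2 fold change 1.17, SE 0.15, adjusted p = 0.000152). The first 2 calls were lost when scaled to nuclear protein-coding genes, and with TPM as deposited 5 of the list were lower and none higher. Of 19 damage signalling genes 4 were lower (7 with TPM as deposited, 2 lower and 1 higher on the scale of nuclear protein-coding genes), among them CHEK1, the checkpoint kinase of replication stress, at 9.63 and 14.2 scaled TPM in IL1RAP-KO RT cells, against 50.4 and 47.3 in IL1RAP-KO cells (log2 fold change -1.97, SE 0.14, adjusted p = 4.99e-06), TIMELESS and H2AX, the last with a log2 fold change of -1.19 (-0.97 without IL1RAP-KO RT replicate 2). ATM, the kinase that senses double-strand breaks, was at 48.4 and 60.1 scaled TPM in IL1RAP-KO RT cells, against 30.3 and 33.5 in IL1RAP-KO cells, higher by less than the threshold.

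Genes that DNA damage is known to induce rose in smaller number. Of 38 genes 10 were higher and none lower (median 0.30). This list leaned on the scaling, with 5 higher and 3 lower and a median of -0.01 for TPM as deposited, 16 higher with nuclear protein-coding genes as the scale, and 8 higher without IL1RAP-KO RT replicate 2. CDKN1A, the CDK inhibitor p21, was at 313 and 213 scaled TPM in IL1RAP-KO RT cells, against 78.8 and 76.5 in IL1RAP-KO cells (log2 fold change 1.72, SE 0.17, adjusted p = 2.89e-05). GDF15, a secreted stress factor, was at 90.1 and 55.8 scaled TPM in IL1RAP-KO RT cells, against 18.8 and 17.99 in IL1RAP-KO cells (log2 fold change 1.89, SE 0.19, adjusted p = 2.99e-05). In both genes replicate 1 was the higher of the irradiated libraries, and neither overlapped the untreated ones. MDM2, a ubiquitin ligase, was at 322 and 355 scaled TPM in IL1RAP-KO RT cells, against 157 and 179 in IL1RAP-KO cells, a log2 fold change of 1.01 (0.91 without untreated replicate 1, 0.94 without RT replicate 2 and 0.67 with TPM as deposited). Among genes of apoptosis, PMAIP1 (NOXA) was at 25.1 and 24.9 scaled TPM in IL1RAP-KO RT cells, against 7.05 and 7.78 in IL1RAP-KO cells (log2 fold change 1.63, SE 0.13, adjusted p = 9.52e-06), and BID was at 12.6 and 10.4 scaled TPM in IL1RAP-KO RT cells, against 27.3 and 29.0 in IL1RAP-KO cells (log2 fold change -1.23, lost when scaled to nuclear protein-coding genes). The effector BAX was at 72.7 and 50.5 scaled TPM in IL1RAP-KO RT cells, against 71.0 and 74.1 in IL1RAP-KO cells (log2 fold change -0.26), with overlapping groups. None of the 4 tested anti-apoptotic members passed. BCL2L1 (BCL-xL) was at 79.8 and 53.2 scaled TPM in IL1RAP-KO RT cells, against 43.8 and 43.2 in IL1RAP-KO cells (log2 fold change 0.57, SE 0.16, adjusted p = 0.0159). MCL1 was at 260.4 and 257 scaled TPM in IL1RAP-KO RT cells, against 373 and 384 in IL1RAP-KO cells (log2 fold change -0.55, SE 0.08, adjusted p = 0.000243). Neither overlapped between groups, and both missed the fold threshold, BCL2L1 above and MCL1 below its untreated level.

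Replication-dependent histone genes went the other way from the replication enzymes. Of 31 tested 12 were higher and 2 lower (median 0.96), and 15 were higher and none lower without IL1RAP-KO RT replicate 2. Their messages normally end in a stem loop without a poly(A) tail, and the libraries were made from total RNA. H2BC5 was at 104 and 155 scaled TPM in IL1RAP-KO RT cells, against 15.9 and 11.6 in IL1RAP-KO cells (log2 fold change 3.14, SE 0.19, adjusted p = 1.59e-06). H2AC6 was at 177 and 188 scaled TPM in IL1RAP-KO RT cells, against 25.9 and 26.4 in IL1RAP-KO cells and the linker histone H1-2 at 84.5 and 94.7 scaled TPM in IL1RAP-KO RT cells, against 16.3 and 15.4 in IL1RAP-KO cells. H4C8 was at 47.7 and 60.5 scaled TPM in IL1RAP-KO RT cells, against 2.15 and 0.774 in IL1RAP-KO cells, the untreated libraries lying at the low end of the scale. Histone genes are near copies of each other, so reads may have been divided between them. Chromatin proteins that arrested cells lose fell with the cell cycle, 11 of 14 lower and none higher. LMNB1, the lamin whose loss marks senescent cells, was at 2.92 and 3.42 scaled TPM in IL1RAP-KO RT cells, against 52.1 and 55.4 in IL1RAP-KO cells (log2 fold change -3.72, SE 0.14, adjusted p = 1.37e-07). HMGB2, a chromatin protein, was at 31.3 and 37.9 scaled TPM in IL1RAP-KO RT cells, against 188 and 188 in IL1RAP-KO cells and the methylation maintenance factor UHRF1 at 1.355 and 1.06 scaled TPM in IL1RAP-KO RT cells, against 19.1 and 18.7 in IL1RAP-KO cells. LMNA had a log2 fold change of -0.38 and EZH2 of -0.85, short of the threshold.

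Of 20 tested genes of the IL-1 pathway 2 were higher and none lower, a share near the 8.09% of all genes called higher (4 higher and 1 lower in WT cells, 5 higher on the scale of nuclear protein-coding genes). These were IL1RL1, the IL-33 receptor, at 2.46 and 2.03 scaled TPM in IL1RAP-KO RT cells, against 0.0748 and 0.187 in IL1RAP-KO cells, and IRAK2. This kinase was at 5.97 and 4.35 scaled TPM in IL1RAP-KO RT cells, against 1.73 and 1.67 in IL1RAP-KO cells (log2 fold change 1.18, 0.99 without IL1RAP-KO RT replicate 1 and 0.92 with TPM as deposited). IL1R1 was at 14.8 and 14.4 scaled TPM in IL1RAP-KO RT cells, against 11.7 and 12.3 in IL1RAP-KO cells (log2 fold change 0.26), MYD88 at 20.6 and 19.5 scaled TPM in IL1RAP-KO RT cells, against 14.6 and 13.8 in IL1RAP-KO cells (0.47), IRAK1 at -0.27, IRAK4 at 0.95 and MAP3K7, the kinase TAK1, at 0.12 on the log2 scale. IL1A, which encodes a ligand, was at 49.98 and 52.2 scaled TPM in IL1RAP-KO RT cells, against 31.0 and 35.1 in IL1RAP-KO cells (log2 fold change 0.62, SE 0.10, adjusted p = 0.000725), short of the fold threshold. Of 23 NF-κB subunits and regulators 4 were higher and none lower (8.09% of all genes were called higher). The median log2 fold change was 0.26, and 7 of the 23 estimates were negative. In WT cells 5 were higher and none lower, with a median of 0.53. BIRC3, a ubiquitin ligase of TNF receptor signalling, was at 154 and 220.2 scaled TPM in IL1RAP-KO RT cells, against 27.9 and 28.3 in IL1RAP-KO cells (log2 fold change 2.67, SE 0.14, adjusted p = 7.23e-07). The deubiquitinase CYLD was at 37.8 and 38.6 scaled TPM in IL1RAP-KO RT cells, against 13.7 and 13.5 in IL1RAP-KO cells, NFKBIZ at 12.6 and 13.5 scaled TPM in IL1RAP-KO RT cells, against 3.48 and 2.57 in IL1RAP-KO cells and TNFAIP3, the inhibitor A20, at 10.6 and 6.10 scaled TPM in IL1RAP-KO RT cells, against 3.83 and 1.61 in IL1RAP-KO cells (log2 fold change 1.355, 0.91 without IL1RAP-KO replicate 2, and just under the threshold without IL1RAP-KO RT replicate 1). NFKBIA, the inhibitor IκBα and a quick target of NF-κB, was at 114 and 113 scaled TPM in IL1RAP-KO RT cells, against 118 and 107 in IL1RAP-KO cells (log2 fold change 0.01, SE 0.08, adjusted p = 0.908), with overlapping groups. NFKB1 was at 25.8 and 22.1 scaled TPM in IL1RAP-KO RT cells, against 37.7 and 37.0 in IL1RAP-KO cells and IKBKG, the scaffold NEMO, at 3.14 and 1.91 scaled TPM in IL1RAP-KO RT cells, against 4.56 and 4.54 in IL1RAP-KO cells, both lower by less than the threshold.

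The response of IL1RAP-KO cells was then set against that of WT cells. The difference of responses was called below WT for 103 genes (0.673% of those tested) and above WT for 24 (0.157%). This balance followed the scaling, with 65 below and 6 above for TPM as deposited but 88 below and 138 above on the scale of nuclear protein-coding genes. Of the 103 genes 78 had risen in WT cells, while 21 rose and 17 fell in IL1RAP-KO cells. By list, 15 of 25 antimicrobial and acute phase genes, 7 of 18 chemokines and myeloid growth factors, 3 of 20 IL-1 pathway genes and 2 of 5 metallothioneins were below WT. Leaving out IL1RAP-KO RT replicate 2 gave 79 genes below and 15 above WT, and leaving out replicate 1 gave 431 and 190. With any of WT replicates 1 and 2, WT RT replicate 1 or IL1RAP-KO replicates 1 and 2 left out, 40 to 49 genes were below and 5 to 9 above WT. The test reads the same IL1RAP-KO libraries as the response itself.

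The antimicrobial genes rose in IL1RAP-KO cells, and 15 of them less far than in WT cells. Of 25 tested 16 were higher and none lower (8.09% of all genes were called higher), with a median of 1.88, against 23 higher and a median of 3.75 in WT cells. LTF (lactoferrin, an iron-binding antimicrobial protein) was at 11.8 and 6.07 scaled TPM in IL1RAP-KO RT cells, against 0.243 and 0.0560 in IL1RAP-KO cells (log2 fold change 3.05, SE 0.30, adjusted p = 2.82e-05). In WT RT cells it was at 1034 and 663 and in WT cells at 3.33 and 2.10 scaled TPM, and the response was lower in IL1RAP-KO cells by 4.77 log2 units (SE 0.42, adjusted p = 0.000756). With a pseudocount of 0.1 the difference of LTF was -3.03 (adjusted p = 0.0782 in limma), its untreated IL1RAP-KO levels lying near 0. LCN2, which binds bacterial siderophores, was at 36.0 and 34.7 scaled TPM in IL1RAP-KO RT cells, against 1.42 and 2.75 in IL1RAP-KO cells (log2 fold change 3.59, SE 0.31, adjusted p = 1.45e-05). The level of LCN2 was 322 and 524 in WT RT cells, against 1.54 and 1.05 in WT cells, a difference of responses of -3.90 (SE 0.44, adjusted p = 0.00343). PI3, the elastase inhibitor elafin, was at 49.7 and 44.1 scaled TPM in IL1RAP-KO RT cells, against 5.08 and 7.47 in IL1RAP-KO cells (log2 fold change 2.74, SE 0.18, adjusted p = 2.8e-06). In WT RT cells PI3 was at 567 and 649, against 10.2 and 9.67 in WT cells (difference -3.06). The irradiated IL1RAP-KO libraries were above their untreated ones and below both WT RT libraries for all 3 genes.

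Calprotectin, the S100A8 and S100A9 pair that chelates metal ions, rose in WT cells, and in IL1RAP-KO cells neither gene passed the fold threshold. S100A8 was at 1335 and 921 scaled TPM in IL1RAP-KO RT cells, against 629 and 634 in IL1RAP-KO cells (log2 fold change 0.81, SE 0.18, adjusted p = 0.00401), short of the fold threshold. WT RT cells had 15653 and 12854 and WT cells 1174 and 1131 scaled TPM, and the responses differed by -2.81 (SE 0.25, adjusted p = 0.000826). S100A9 was at 2257 and 1766 scaled TPM in IL1RAP-KO RT cells, against 1409 and 1388 in IL1RAP-KO cells. It was at 21286 and 19104 in WT RT and 2049.5 and 2224 in WT cells (difference -2.73). S100A7, psoriasin, was at 8.61 and 12.9 scaled TPM in IL1RAP-KO RT cells, against 0.477 and 0.522 in IL1RAP-KO cells. In WT RT cells it was at 399 and 308, against 0.457 and 1.56 in WT cells. The difference of -4.56 lost its call with a pseudocount of 0.1 (adjusted p = 0.0995), and reads of S100A7 may be shared with its near copies. Not every member followed WT so far behind. SLPI, another antiprotease, was at 709.5 and 703 scaled TPM in IL1RAP-KO RT cells, against 217 and 199 in IL1RAP-KO cells (log2 fold change 1.76, SE 0.13, adjusted p = 5.04e-06) and differed from WT by -0.55 (SE 0.18, adjusted p = 0.174), which was not called. CFB, complement factor B, was at 57.4 and 54.9 scaled TPM in IL1RAP-KO RT cells, against 4.36 and 3.75 in IL1RAP-KO cells (log2 fold change 3.50, SE 0.14, adjusted p = 1.88e-07), with a difference from WT of -0.78 that was not called. SOD2, the mitochondrial superoxide dismutase, was at 858 and 817 scaled TPM in IL1RAP-KO RT cells, against 159 and 177 in IL1RAP-KO cells. Its WT levels were higher, 6291 and 5583 after RT and 608.5 and 602.4 untreated. The difference of responses, -0.98, lay just short of the fold threshold and was not called.

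Of 18 tested chemokines and myeloid growth factors 6 were higher and 1, CCL20, lower in IL1RAP-KO RT cells, and 7 were below WT. With TPM as deposited 4 were higher and 2 lower. Their promoters include sites of NF-κB, and those of CXCL1 (chr4:73869143-73869442) and CCL20 (chr2:227813592-227813891), both on the plus strand, are shown because these genes had called responses of opposite direction in IL1RAP-KO cells. Matches to the kappa-B consensus (GGGRNNYYCC, with R for A or G, Y for C or T and N for any base) on either strand are in capitals.
CXCL1: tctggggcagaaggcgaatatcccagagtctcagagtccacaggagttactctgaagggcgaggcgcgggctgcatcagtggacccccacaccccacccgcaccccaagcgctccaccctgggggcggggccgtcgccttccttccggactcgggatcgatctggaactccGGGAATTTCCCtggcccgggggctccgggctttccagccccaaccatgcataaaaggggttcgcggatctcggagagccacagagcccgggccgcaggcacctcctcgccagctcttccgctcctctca
CCL20: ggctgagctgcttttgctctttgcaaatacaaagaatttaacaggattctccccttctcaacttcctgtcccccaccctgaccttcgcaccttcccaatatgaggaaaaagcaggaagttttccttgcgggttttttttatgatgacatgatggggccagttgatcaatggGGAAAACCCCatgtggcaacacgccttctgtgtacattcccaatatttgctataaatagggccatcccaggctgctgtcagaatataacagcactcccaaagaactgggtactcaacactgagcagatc
The match of CCL20 began 79 bases before the start, and CXCL1 had 2 overlapping matches from 79 and 78 bases before it. Of chemokine promoters 8 of 12 (66.7%) matched, of NF-κB regulators 13 of 20 (65.0%) and of antimicrobial genes 3 of 14 (21.4%), against 1776 of 10380 tested genes (17.1%). The match was not particular to these lists. MHC class I genes held it in 9 of 16 (56.2%) and cholesterol synthesis genes in 5 of 19 (26.3%). The share was 7 of 39 (17.9%) in interferon genes and 1 of 20 in the mitotic list.

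CCL20, which attracts cells with the receptor CCR6, was lower, at 2.40 and 3.79 scaled TPM in IL1RAP-KO RT cells, against 10.8 and 9.08 in IL1RAP-KO cells (log2 fold change -1.44, SE 0.23, adjusted p = 0.000573). It was higher in WT RT cells, at 44.3 and 39.6 scaled TPM, against 11.9 and 15.4 in WT cells, and the responses differed by -2.995 (SE 0.32, adjusted p = 0.00247). CXCL1, a chemokine of neutrophils, was higher in IL1RAP-KO cells too, at 50.7 and 36.4 scaled TPM in IL1RAP-KO RT cells, against 7.09 and 6.07 in IL1RAP-KO cells (log2 fold change 2.54, SE 0.15, adjusted p = 1.21e-06). Its WT levels were 1058 and 989 after RT and 31.9 and 31.2 untreated, a difference of responses of -2.43 (SE 0.21, adjusted p = 0.000586). CXCL8 (interleukin-8), of the same family, was at 16.97 and 15.97 scaled TPM in IL1RAP-KO RT cells, against 4.03 and 4.10 in IL1RAP-KO cells (log2 fold change 1.79, SE 0.11, adjusted p = 1.99e-06). It was at 276 and 276 in WT RT cells, against 11.1 and 12.2 in WT cells (difference -2.67, adjusted p = 0.000118). CCL2, which attracts monocytes, was at 4.78 and 3.75 scaled TPM in IL1RAP-KO RT cells, against 1.12 and 1.84 in IL1RAP-KO cells (log2 fold change 1.09, 0.88 without untreated replicate 1 and 0.95 without RT replicate 1), and at 59.0 and 57.6 in WT RT and 2.78 and 2.02 in WT cells (difference -3.04). CSF3 (G-CSF) was at 4.87 and 4.78 scaled TPM in IL1RAP-KO RT cells, against 9.28 and 9.79 in IL1RAP-KO cells, lower by less than the threshold, and at 77.8 and 81.8 in WT RT and 25.7 and 23.6 in WT cells (difference -2.51). For all 5 genes WT RT cells held the highest levels and IL1RAP-KO RT libraries lay well below them. TSLP, a cytokine of epithelia, was higher, at 2.75 and 2.61 scaled TPM in IL1RAP-KO RT cells, against 0.178 and 0.429 in IL1RAP-KO cells (log2 fold change 1.504), and its difference from WT was not called (0.99). IL24 was at 1.38 and 1.70 scaled TPM in IL1RAP-KO RT cells and listed at 0 in both IL1RAP-KO libraries.

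**Figure D4:**
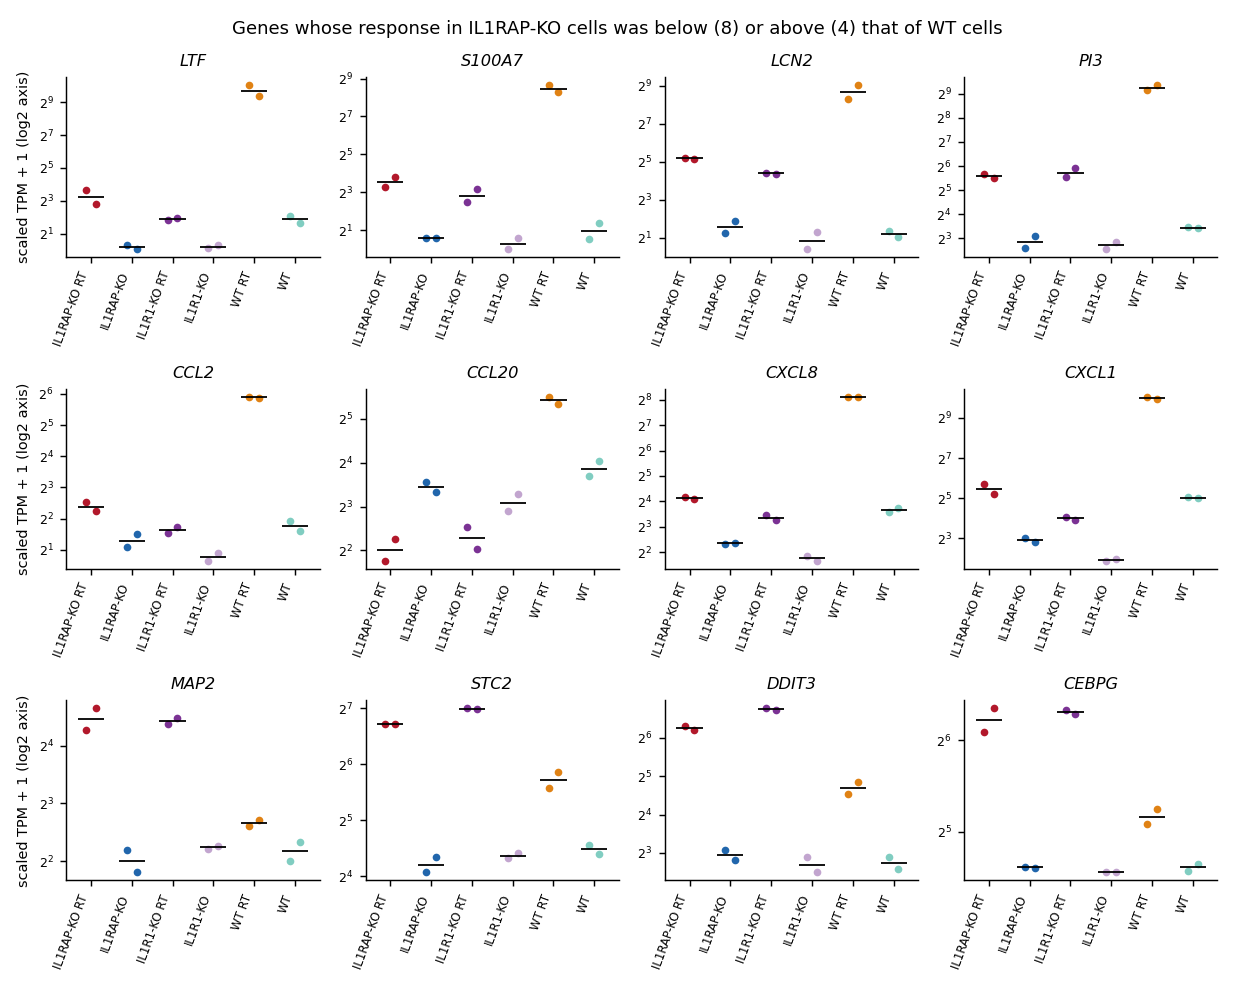
Scaled TPM + 1 on a log2 axis (y) of 12 genes in the 6 groups (x), 1 point per library with a bar at the mean of the log2 values. For LTF, S100A7, LCN2, PI3, CCL2, CCL20, CXCL8 and CXCL1 the WT RT libraries lie highest, and for MAP2, STC2, DDIT3 and CEBPG the response of IL1RAP-KO cells exceeded that of WT by 1.05 to 1.97 log2 units.

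Above WT the response held genes of the integrated stress response, in which ATF4 raises amino acid metabolism and stress factors. Of 24 genes of that list 10 were higher and 4 lower in IL1RAP-KO RT cells (7 and 5 with TPM as deposited, 11 and 1 on the scale of nuclear protein-coding genes), and 4 were above WT. DDIT3 (CHOP), a transcription factor of prolonged stress, was at 78.4 and 72.3 scaled TPM in IL1RAP-KO RT cells, against 7.48 and 6.02 in IL1RAP-KO cells (log2 fold change 3.31, SE 0.17, adjusted p = 6.31e-07). It was at 22.1 and 27.7 in WT RT cells, against 6.39 and 4.97 in WT cells (difference 1.352, adjusted p = 0.0293). STC2, a secreted glycoprotein, was at 104 and 104 scaled TPM in IL1RAP-KO RT cells, against 15.8 and 19.2 in IL1RAP-KO cells (log2 fold change 2.51, SE 0.12, adjusted p = 4.39e-07). It was at 46.5 and 57.2 in WT RT and 22.7 and 20.1 in WT cells (difference 1.27, adjusted p = 0.00884). CEBPG, a partner of ATF4, was at 67.2 and 80.5 scaled TPM in IL1RAP-KO RT cells, against 23.5 and 23.4 in IL1RAP-KO cells (difference from WT 1.05). TRIB3 was at 97.3 and 77.1 scaled TPM in IL1RAP-KO RT cells, against 47.2 and 44.2 in IL1RAP-KO cells (difference 1.20). With TPM as deposited none of these 4 differences was called, and without WT RT replicate 1 the adjusted p was 0.134 for DDIT3, 0.132 for TRIB3 and 0.0523 for CEBPG. Leaving out either WT or either IL1RAP-KO library also ended the calls of DDIT3 (adjusted p = 0.0606 to 0.133 in limma) and TRIB3 (0.104 to 0.133), as leaving out WT replicate 2 did for CEBPG (0.0561). Leaving out IL1RAP-KO RT replicate 2 gave 0.0606 for DDIT3 and put CEBPG short of the fold threshold at 0.92. ATF3, a target of ATF4, was at 37.8 and 37.5 scaled TPM in IL1RAP-KO RT cells, against 0.683 and 0.606 in IL1RAP-KO cells (log2 fold change 4.56, SE 0.37, adjusted p = 9.38e-06), with a difference from WT of 1.70 that was not called (adjusted p = 0.152). The mRNA of ATF4 was at 297 and 276 scaled TPM in IL1RAP-KO RT cells, against 292 and 296 in IL1RAP-KO cells, with overlapping groups. PHGDH, the first enzyme of serine synthesis and also an ATF4 target, was lower, at 20.0 and 23.3 scaled TPM in IL1RAP-KO RT cells, against 107 and 96.9 in IL1RAP-KO cells (log2 fold change -2.19, SE 0.13, adjusted p = 1.71e-06). Outside the list MAP2, a microtubule protein, was at 18.3 and 23.99 scaled TPM in IL1RAP-KO RT cells, against 3.54 and 2.4999 in IL1RAP-KO cells. In WT RT cells it was at 5.07 and 5.56, against 3.01 and 4.02 in WT cells (difference 1.97, SE 0.26, adjusted p = 0.00805).

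Against cells labelled IL1R1-KO the difference of responses was called above for 3 genes (0.0196% of those tested) and below for none, with 681 and 716 at an unadjusted p under 0.05 in limma. Without IL1RAP-KO RT replicate 1 these numbers became 72 and 186. None of the genes described so far was among them, and the responses of both KO lines can be set side by side. LTF changed by 3.05 in IL1RAP-KO cells and 1.69 in cells labelled IL1R1-KO, LCN2 by 3.59 and 3.55, CXCL1 by 2.54 and 2.06, CCL20 by -1.44 and -0.81, and DDIT3 by 3.31 and 4.06 on the log2 scale.

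Lipid synthesis fell as a group. Of 25 genes of cholesterol synthesis 19 were lower and none higher (median -1.72, every estimate negative), and 18 were lower without IL1RAP-KO RT replicate 2. FDPS, which makes farnesyl pyrophosphate, was at 91.1 and 92.8 scaled TPM in IL1RAP-KO RT cells, against 475 and 479 in IL1RAP-KO cells (log2 fold change -2.36, SE 0.13, adjusted p = 7.87e-07). SQLE, a rate-limiting oxygenase of the pathway, was at 38.5 and 41.6 scaled TPM in IL1RAP-KO RT cells, against 207 and 208 in IL1RAP-KO cells (log2 fold change -2.35, SE 0.12, adjusted p = 5.71e-07). DHCR7, which catalyses its last step, was at 15.5 and 15.9 scaled TPM in IL1RAP-KO RT cells, against 121 and 112 in IL1RAP-KO cells. The transcription factor SREBF2, which drives these genes, was at 67.1 and 60.1 scaled TPM in IL1RAP-KO RT cells, against 116 and 109 in IL1RAP-KO cells (log2 fold change -0.82, short of the threshold). In fatty acid synthesis 7 of 12 were lower. The desaturase FADS2 was at 12.6 and 11.4 scaled TPM in IL1RAP-KO RT cells, against 108 and 101 in IL1RAP-KO cells (log2 fold change -3.03, SE 0.13, adjusted p = 3.2e-07). Another desaturase, SCD, was at 153 and 137 scaled TPM in IL1RAP-KO RT cells, against 475 and 474 in IL1RAP-KO cells (log2 fold change -1.70, SE 0.10, adjusted p = 1.59e-06). Neither overlapped between groups. FASN had a log2 fold change of -1.10 (-0.98 without IL1RAP-KO RT replicate 2 and -0.69 on the scale of nuclear protein-coding genes). In WT cells 19 of the 25 and 6 of the 12 were lower after irradiation, and no member of either list differed from WT.

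Mitochondrial and nuclear parts of the respiratory chain moved apart. All 13 mitochondrially encoded mRNAs were higher (median 1.71), 10 of them without IL1RAP-KO RT replicate 2, the library with the 57.0% mitochondrial share. MT-ND2, a subunit of complex I, was at 32912 and 60168 scaled TPM in IL1RAP-KO RT cells, against 7335 and 7237 in IL1RAP-KO cells (log2 fold change 2.61, SE 0.24, adjusted p = 2.09e-05), and MT-CO3 of complex IV at 36993 and 49405 scaled TPM in IL1RAP-KO RT cells, against 16583 and 16473 in IL1RAP-KO cells. Replicate 2 was the higher of the irradiated libraries in each case. Of 41 nuclear subunits 23 were lower and none higher (median -1.02), but 14 without that library, 6 when scaled to nuclear protein-coding genes and 38 with TPM as deposited. ATP5F1B, the beta subunit of ATP synthase, was at 364 and 294 scaled TPM in IL1RAP-KO RT cells, against 925 and 937 in IL1RAP-KO cells (log2 fold change -1.51, SE 0.10, adjusted p = 2.32e-06). CYC1, cytochrome c1, was at 71.0 and 60.03 scaled TPM in IL1RAP-KO RT cells, against 227 and 221 in IL1RAP-KO cells (log2 fold change -1.76, SE 0.10, adjusted p = 9.98e-07). Of 74 cytosolic ribosomal proteins 17 were lower (median -0.77), 8 without replicate 2, 4 when scaled to nuclear protein-coding genes and 48 with TPM as deposited. RPL3 was at 1006 and 741 scaled TPM in IL1RAP-KO RT cells, against 3117 and 3096 in IL1RAP-KO cells (log2 fold change -1.85, SE 0.18, adjusted p = 2.55e-05). RPS27 was at 7318 and 8274 scaled TPM in IL1RAP-KO RT cells, against 6304 and 6112 in IL1RAP-KO cells (log2 fold change 0.33). Of 15 genes often used as references 9 were lower, among them GAPDH, at 1225 and 875 scaled TPM in IL1RAP-KO RT cells, against 4560.3 and 4452 in IL1RAP-KO cells (log2 fold change -2.12, SE 0.15, adjusted p = 3.63e-06). ACTB was at 437 and 347 scaled TPM in IL1RAP-KO RT cells, against 1861 and 1780.0 in IL1RAP-KO cells (log2 fold change -2.22, SE 0.15, adjusted p = 3.56e-06). YWHAZ (log2 fold change -0.26) did not pass.

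Other stress programmes moved gene by gene. The metallothioneins MT2A and MT1E, which bind zinc and copper, fell to 1042 and 969.8 and 82.4 and 69.0 scaled TPM in IL1RAP-KO RT cells, against 8985 and 7975 and 811 and 969 in IL1RAP-KO cells. Their log2 fold changes were -3.07 (SE 0.11, adjusted p = 1.06e-07) and -3.54 (SE 0.11, adjusted p = 8.6e-08), below WT by 1.29 (0.99 when scaled to nuclear protein-coding genes) and 1.31 log2 units, while MT1X stood at 0.16. These genes are near copies of each other. Of 17 cytosolic heat shock genes 2 were higher and 2 lower, shares near those of all genes (8.09% and 9.33%). The numbers were 2 and 4 with TPM as deposited, and 4 and 1 on the scale of nuclear protein-coding genes. HSPA8, the constitutive HSP70, was at 597 and 677 scaled TPM in IL1RAP-KO RT cells, against 2412 and 2434 in IL1RAP-KO cells (log2 fold change -1.93, SE 0.09, adjusted p = 4.26e-07). The small chaperone CRYAB was at 12.9 and 7.28 scaled TPM in IL1RAP-KO RT cells, against 0.608 and 0.970 in IL1RAP-KO cells (log2 fold change 2.59, SE 0.25, adjusted p = 2.49e-05). In the endoplasmic reticulum 2 of 19 were higher and none lower, the first a share near the 8.09% of all genes. DNAJB9 was at 41.0 and 51.0 scaled TPM in IL1RAP-KO RT cells, against 10.5 and 13.6 in IL1RAP-KO cells. The chaperone CLGN was at 23.8 and 38.1 scaled TPM in IL1RAP-KO RT cells, against 2.07 and 2.35 in IL1RAP-KO cells. Of 21 NRF2 targets 5 were lower and 1 higher, but 1 lower and 4 higher on the scale of nuclear protein-coding genes (9.33% and 8.09% of all genes in the reported fit). The lower ones included TKT of the pentose phosphate pathway, at 253 and 186 scaled TPM in IL1RAP-KO RT cells, against 765 and 759.9 in IL1RAP-KO cells (log2 fold change -1.81, SE 0.17, adjusted p = 2.11e-05). Of 8 genes of the aryl hydrocarbon receptor 5 were higher. CYP1B1, an oxidase it induces, was at 224 and 285 scaled TPM in IL1RAP-KO RT cells, against 22.6 and 23.3 in IL1RAP-KO cells (log2 fold change 3.41, SE 0.20, adjusted p = 1.26e-06). CYP1A1 was at 19.4 and 32.4 scaled TPM in IL1RAP-KO RT cells, against 0.440 and 0.364 in IL1RAP-KO cells (log2 fold change 4.22, SE 0.36, adjusted p = 1.23e-05). The receptor gene AHR had a log2 fold change of 1.06 (0.73 with TPM as deposited). The calls of the repressor AHRR (1.04, adjusted p = 0.0322) and of ALDH3A1 (1.49, adjusted p = 0.0139) were lost without IL1RAP-KO RT replicate 1 (adjusted p = 0.219 and 0.0632 in limma) and without IL1RAP-KO replicate 2 (0.108 and 0.0646), and that of AHRR without IL1RAP-KO replicate 1 (0.0984).

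Of 22 genes of keratinocyte differentiation 8 were higher and none lower (8.09% and 9.33% of all genes), and 4 were below WT. KLF4, a transcription factor of the upper epidermis, was at 27.2 and 25.0 scaled TPM in IL1RAP-KO RT cells, against 3.78 and 3.85 in IL1RAP-KO cells (log2 fold change 2.49, SE 0.14, adjusted p = 1.18e-06). The kallikrein KLK8 was at 11.2 and 8.76 scaled TPM in IL1RAP-KO RT cells, against 1.01 and 0.802 in IL1RAP-KO cells (log2 fold change 2.52, SE 0.27, adjusted p = 5.01e-05). KRT16, a keratin of stressed epidermis, was at 110.4 and 132 scaled TPM in IL1RAP-KO RT cells, against 21.9 and 18.7 in IL1RAP-KO cells (log2 fold change 2.52, SE 0.27, adjusted p = 4.62e-05), though its reads may be shared with KRT14 and KRT17. COL17A1 of the hemidesmosome was at 398 and 511 scaled TPM in IL1RAP-KO RT cells, against 162 and 158 in IL1RAP-KO cells (log2 fold change 1.49, SE 0.12, adjusted p = 6.76e-06). KRT5 was at 1199.7 and 1045 scaled TPM in IL1RAP-KO RT cells, against 2414 and 2361 in IL1RAP-KO cells (log2 fold change -1.09, -0.99 without IL1RAP-KO RT replicate 2). Of 13 luminal and simple epithelial genes 4 were lower and 1 higher (9.33% and 8.09% of all genes). On the scale of nuclear protein-coding genes 3 were lower and 2 higher. EPCAM was at 36.5 and 50.3 scaled TPM in IL1RAP-KO RT cells, against 144 and 142 in IL1RAP-KO cells (log2 fold change -1.71, SE 0.16, adjusted p = 2.24e-05). KRT7 was at 381 and 331 scaled TPM in IL1RAP-KO RT cells, against 1361 and 1345 in IL1RAP-KO cells (log2 fold change -1.93, SE 0.27, adjusted p = 0.000258) and MUC1 at 139.8 and 144 scaled TPM in IL1RAP-KO RT cells, against 66.6 and 66.8 in IL1RAP-KO cells (log2 fold change 1.08, 0.74 with TPM as deposited). The adhesion protein CDH1 was at 61.1 and 63.3 scaled TPM in IL1RAP-KO RT cells, against 64.9 and 60.03 in IL1RAP-KO cells, with overlapping groups. Of 18 genes of the epithelial-mesenchymal transition 3 were lower and 1 higher, against 9.33% and 8.09% of all genes. With TPM as deposited 6 were lower and none higher, and on the scale of nuclear protein-coding genes 2 and 1. The matrix protein SPARC was at 4.59 and 2.74 scaled TPM in IL1RAP-KO RT cells, against 55.7 and 65.4 in IL1RAP-KO cells (log2 fold change -3.75, SE 0.21, adjusted p = 1.11e-06). Vimentin (VIM) was at 208 and 153 scaled TPM in IL1RAP-KO RT cells, against 555 and 533 in IL1RAP-KO cells (log2 fold change -1.60, SE 0.15, adjusted p = 2.46e-05).

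Of 31 tested secreted factors known from senescent cells 10 were higher and 3 lower, against 8.09% and 9.33% of all genes, and 5 were below WT. The numbers were 7 and 3 without IL1RAP-KO RT replicate 2, 6 and 5 with TPM as deposited, and 14 and 3 on the scale of nuclear protein-coding genes. VEGFA, a growth factor of blood vessels, was at 130.5 and 156 scaled TPM in IL1RAP-KO RT cells, against 37.4 and 39.2 in IL1RAP-KO cells (log2 fold change 1.87, SE 0.12, adjusted p = 2.28e-06). HBEGF, a ligand of EGFR, was at 25.9 and 33.1 scaled TPM in IL1RAP-KO RT cells, against 7.05 and 7.76 in IL1RAP-KO cells (log2 fold change 1.85, SE 0.19, adjusted p = 4.11e-05). ANGPTL4, an inhibitor of lipoprotein lipase, was lower, at 5.91 and 4.56 scaled TPM in IL1RAP-KO RT cells, against 42.4 and 43.6 in IL1RAP-KO cells (log2 fold change -2.83, SE 0.26, adjusted p = 1.79e-05). AREG, another EGFR ligand, stayed short of the threshold (log2 fold change -0.42). TIMP3, an inhibitor of metalloproteinases, was at 135 and 144 scaled TPM in IL1RAP-KO RT cells, against 43.9 and 48.2 in IL1RAP-KO cells (log2 fold change 1.58, SE 0.17, adjusted p = 4.92e-05). MMP3 was at 0.704 and 1.83 scaled TPM in IL1RAP-KO RT cells and listed at 0 in both IL1RAP-KO libraries, a call lost without IL1RAP-KO RT replicate 2 (adjusted p = 0.0807 in limma). EGFR itself was at 118 and 123 scaled TPM in IL1RAP-KO RT cells, against 80.8 and 80.3 in IL1RAP-KO cells (log2 fold change 0.57). Of 17 immediate early genes 2 were higher and 1 lower, shares near those of all genes (8.09% and 9.33%), with TPM as deposited 1 and 3. EGR1 was lower, at 12.5 and 10.1 scaled TPM in IL1RAP-KO RT cells, against 27.2 and 29.6 in IL1RAP-KO cells (log2 fold change -1.26, -0.88 when scaled to nuclear protein-coding genes). KLF6 was higher, at 82.9 and 66.9 scaled TPM in IL1RAP-KO RT cells, against 37.3 and 33.5 in IL1RAP-KO cells (log2 fold change 1.06, 0.98 without untreated replicate 2 and 0.90 without RT replicate 1). MYC had a log2 fold change of -0.93, short of the threshold.

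The gene classes were not changed alike. Of 2031 long noncoding RNAs 312 (15.4%) were higher and 63 (3.1%) lower, whereas of 12265 nuclear protein-coding genes 817 (6.66%) were higher and 1305 (10.6%) lower. The calls of protein-coding genes also followed their level in untreated IL1RAP-KO cells, which enters the comparison itself. In the quintile of lowest level 18.3% were higher and 2.57% lower, and in that of highest level 1.18% and 20.5%. The part of level in the difference between classes was not tested. NEAT1, the RNA that builds paraspeckles, was at 323 and 282 scaled TPM in IL1RAP-KO RT cells, against 62.8 and 64.3 in IL1RAP-KO cells (log2 fold change 2.23, SE 0.10, adjusted p = 3.74e-07). MALAT1, a nuclear RNA, was at 3159 and 4964 scaled TPM in IL1RAP-KO RT cells, against 1021 and 1032 in IL1RAP-KO cells (log2 fold change 1.95, SE 0.20, adjusted p = 4.31e-05). H19, an imprinted RNA, was lower, at 2.24 and 2.58 scaled TPM in IL1RAP-KO RT cells, against 31.6 and 28.4 in IL1RAP-KO cells (log2 fold change -3.19, SE 0.28, adjusted p = 1.39e-05). Protein-coding genes were also divided into quintiles by the length of genome they span. In the shortest quintile (0.18 to 11.1 kb) 14.1% were called lower, and in the longest (99.3 to 2300 kb) 5.80%, with medians of -0.23 and 0.04. The medians of WT cells over the same quintiles were -0.07 and -0.04. Replicate 2 minus replicate 1 of the irradiated pair had medians of -0.18 and 0.11 in these quintiles, so the replicates differed along gene length in the same direction as the comparison, and the part of that in the counts was not tested.

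**Figure D5:**
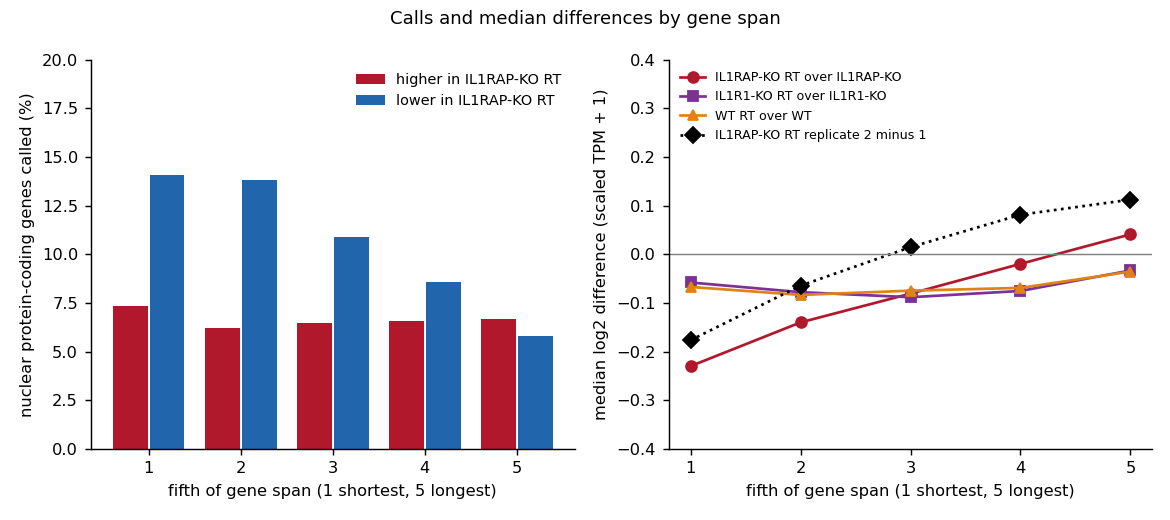
Left, percent of nuclear protein-coding genes called higher or lower in IL1RAP-KO RT against IL1RAP-KO cells (y) by quintile of genomic span, shortest to longest (x). Right, medians of the log2 response of IL1RAP-KO, IL1R1-KO and WT cells and of IL1RAP-KO RT replicate 2 minus replicate 1; the share called lower is 14.1% in the shortest and 5.80% in the longest quintile.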

How the data were processed

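Stranded libraries of ribosome-depleted total RNA from 12 MCF10A samples (6 groups of 2) were read as short paired ends. Per the submitters' processing notes, the tools were cutadapt 1.15, STAR 2.5.3a on GRCh38, HTSeq and DESeq2. The methods of the study name Ensembl gene models for the counting. The values deposited by the authors are TPM for 60675 genes. How gene lengths were chosen is not given in the sources used here. The joint table was used, and the 12 tables of single libraries equal its columns. Positions and gene classes came from GENCODE 44, which held 60419 of the gene IDs (15253 of those tested).

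The filter kept 15303 genes that reached 1 TPM in 2 or more libraries (30580 exceeded 0 in any). Libraries were scaled by the unweighted TMM method, trimming 30% of M and 5% of A values from either end. The log2 of scaled TPM plus 1 was fitted in limma 3.58.1 (R 4.3.3) with 6 group means and a trend of the variance with level, leaving 6 residual degrees of freedom and adding 3.73 from the prior. The difference of responses was the interaction of genotype and RT. Tested on simulated data with 100 genes changed by 1.5 and 100 by 3 log2 units in this comparison, among 15303 genes, the fit called 93 and 98 of them, with 1 false call. To check pairing, deviations from the group mean were correlated between libraries of the same number, giving -0.06 to 0.09 over 15 pairs of groups (0.05 for the IL1RAP-KO groups). Replicate number was therefore a block only as an alternative. Other alternatives were the scaling, pseudocount, filter, fold threshold, samples fitted and each library left out.

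The comparison, the 48 gene lists, the scaling and the thresholds were chosen with earlier results of these data known. Genes were named by a rule. It took genes the study names for the IL-1 and BCL2 pathways, and the 15 highest and 15 lowest called changes whose groups do not overlap and whose mean reaches 2 log2 units. From each list it took up to 6 called and 3 other members. It also took the 12 highest and 12 lowest called differences from WT and the 6 highest and 6 lowest from IL1R1-KO, with the same minimum mean. Promoters are RefSeq sequences of GRCh38.p14, found for 10380 of the tested genes. Motif searches and figures used Python 3.11.15. Single members of some lists are not reported here.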

Additional observations from a re-analysis of the deposited data

Results flagged for a closer look

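The differences between the response of IL1RAP-KO cells and that of WT cells are the values a reader would look at again, since 36 of the genes named by the rule differed in that test at an adjusted p under 0.05 in limma and a difference over a factor of 2. All are log2 differences, IL1RAP-KO minus WT. No group had enough libraries to test whether a single one lay far from the others.

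Below WT were antimicrobial and acute phase genes, namely LTF (-4.77), S100A7 (-4.56), LCN2 (-3.90), PI3 (-3.06), CHI3L1 (-2.83), S100A8 (-2.81), S100A9 (-2.73), SERPINA3 (-2.35) and VNN1 (-1.65). CHI3L1, a chitinase-like protein, was at 21.2 and 15.5 scaled TPM in IL1RAP-KO RT cells, against 3.40 and 2.99 in IL1RAP-KO cells, and at 142 and 104 in WT RT and 2.85 and 2.67 in WT cells. SERPINA3, an acute phase antiprotease, was at 182 and 122 scaled TPM in IL1RAP-KO RT cells, against 118 and 119.5 in IL1RAP-KO cells, and at 1274 and 1181 in WT RT and 191 and 193 in WT cells. Chemokines and growth factors below WT were CCL2 (-3.04), CCL20 (-2.995), CXCL8 (-2.67), CSF3 (-2.51), CXCL1 (-2.43) and CSF1 (-1.31). Of these CSF1 was called under only 4 of 16 alternatives. Of the IL-1 pathway and TNF ligands, IRAK2 (-1.22), IL1A (-1.01) and TNFSF15 (-1.27) were below WT, as were the metallothioneins MT1E (-1.31) and MT2A (-1.29), the topoisomerase TOP2A (-1.27), PDZK1IP1 (-2.59) and DENND2B (-2.58). The call of IRAK2 was lost when any library but IL1RAP-KO RT replicate 1 was left out (adjusted p = 0.0641 to 0.148 in limma). That of IL1A was lost without either WT library, IL1RAP-KO replicate 2 or WT RT replicate 1 (0.0528 to 0.0603) and, at a difference of -0.98, without IL1RAP-KO RT replicate 1. DENND2B, a regulator of Rab GTPases, was at 12.3 and 13.6 scaled TPM in IL1RAP-KO RT cells, against 21.1 and 20.5 in IL1RAP-KO cells, and at 89.9 and 70.9 in WT RT and 18.6 and 21.8 in WT cells.

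Above WT were the integrated stress genes CEBPG (1.05), TRIB3 (1.20), STC2 (1.27) and DDIT3 (1.352). The keratin KRT14 (1.349) was at 52.7 and 57.5 scaled TPM in IL1RAP-KO RT cells, against 63.7 and 59.4 in IL1RAP-KO cells, and at 27.5 and 29.6 in WT RT and 82.4 and 83.5 in WT cells. It fell in WT cells (log2 fold change -1.51) and had a log2 fold change of -0.16 in IL1RAP-KO cells, which was not called. The remaining genes above WT were ALCAM (1.06), LAPTM5 (1.10), ABLIM3 (1.17), FLRT3 (1.23), STXBP4 (1.31), C1orf21 (1.56), IQCJ-SCHIP1 (1.56) and MAP2 (1.97). MAP2 and C1orf21 were among the 15 of the 36 that were called under all 16 alternatives, and the other 21 lost their call under at least 1 of them. The fewest calls were those of CSF1, under 4 of the 16, and of TNFSF15, IRAK2, STXBP4 and ALCAM, under 5 each.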

How the results depend on the processing

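The number of genes called moved with several choices. With TPM as deposited 733 genes were higher and 2532 lower in IL1RAP-KO RT than in IL1RAP-KO cells, 2413 and 684 when nuclear protein-coding genes set the scale, and with a fold threshold of 0.433 log2 units 3110 and 3653. A pseudocount of 0.1 gave 1782 and 1693. Leaving out 1 of the 4 libraries gave 1201 to 1494 higher and 1231 to 1707 lower. Against WT the genes above numbered 6 with TPM as deposited, 138 scaled to nuclear protein-coding genes, 13 with only the groups compared, 46 at that lower threshold and 5 to 190 with a library left out. Those below WT numbered 65 with TPM as deposited, 88 scaled to nuclear protein-coding genes, 68 with a pseudocount of 0.1, 162 at the lower fold threshold and 40 to 431 with a library left out. Against cells labelled IL1R1-KO the genes above numbered 9 without a filter, 1 with a TPM of at least 5, 1 with only the groups compared and 1 to 72 with a library left out, and those below 5 without a filter, 1 on the scale of nuclear protein-coding genes and 0 to 186 with a library left out. The highest counts against WT and IL1R1-KO came from leaving out IL1RAP-KO RT replicate 1. The cause of these shifts was not tested. With replicate number as a block 1240 genes were higher and 1429 lower, 27 were above and 103 below WT, and the block ended no call of a named gene.

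Of 219 named genes called in the main comparison 162 were called under all 12 alternatives, and of 36 that differed from WT 15 were called under all 16. No named gene reversed. TPM hold no depth, so counting error is unknown, and genes near a TPM of 1 are the least certain.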

Other observations

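Of 10 tested clustered protocadherins, adhesion proteins of neurons and epithelia whose genes lie in a row on chromosome 5, 7 were higher in IL1RAP-KO RT than in IL1RAP-KO cells (8.09% of all genes were called higher) and all 10 estimates were positive, with a median log2 fold change of 1.05. Without IL1RAP-KO RT replicate 2, 5 were higher, with TPM as deposited 3, and 10 on the scale of nuclear protein-coding genes. PCDHB14 was at 11.8 and 13.2 scaled TPM in IL1RAP-KO RT cells, against 1.89 and 2.20 in IL1RAP-KO cells (log2 fold change 2.15, SE 0.17, adjusted p = 7.3e-06) and PCDHGA10 at 5.17 and 5.36 scaled TPM in IL1RAP-KO RT cells, against 1.13 and 0.895 in IL1RAP-KO cells (log2 fold change 1.64, SE 0.21, adjusted p = 0.000171), adjusted p-values being from limma. The genes are near copies, some of which share exons, so reads may have been divided between them. Among 35 lysosomal genes 4 were higher and 1 lower, shares near or below those of all genes (8.09% and 9.33%), and with TPM as deposited 2 and 3. The protease TPP1 was at 51.7 and 84.2 scaled TPM in IL1RAP-KO RT cells, against 18.6 and 19.7 in IL1RAP-KO cells. Of the 3 tested APOBEC3 deaminases, which edit cytosine in single-stranded DNA, APOBEC3H was higher, at 6.78 and 10.3 scaled TPM in IL1RAP-KO RT cells, against 1.64 and 0.131 in IL1RAP-KO cells, while APOBEC3C had a log2 fold change of -0.82.

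The response of IL1RAP-KO cells was above that of cells labelled IL1R1-KO in 3 genes, which were singled out after their values were seen. AP001094.1, a long noncoding RNA on chromosome 18 (8406761 to 8406953), was at 13.7 and 15.2 scaled TPM in IL1RAP-KO RT cells and listed at 0 in the other 10 libraries (difference 3.95, adjusted p = 0.000606 in limma). For the pseudogenes AC004975.1 and AC107918.4 the difference lay in the untreated cells labelled IL1R1-KO, which held 6.95 and 6.35 and 4.99 and 4.61 scaled TPM, while the 4 IL1RAP-KO libraries lay at 0 and at 0.0535 to 0.112.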
